A study of Mus musculus with 12 samples.

Results

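The genes described here are 10 genes of the smooth muscle type contractile apparatus: Acta2, Actg2, Tagln, Cnn1, Cnn2, Cald1, Tpm1, Tpm2, Myl9 and Flna. They were taken as a named list from a table of 43346 gene IDs, and all 10 were found by matching the Ensembl IDs to GENCODE M21 symbols. All 10 passed the filter on low counts, none of them lies on chromosome 13, and each held whole-number counts in all 12 libraries to within 1e-06. The list names genes that myofibroblasts, and fibroblasts grown as feeder layers, express at high levels.

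Smooth muscle cells and myofibroblasts contract by sliding filaments of actin past myosin. Tropomyosins, calponins and caldesmon lie along the actin filament and restrain it, the myosin regulatory light chain switches the motor on when it is phosphorylated, and filamin ties actin filaments to each other and to the membrane. Many of these genes are targets of the serum response factor SRF, which binds a short AT-rich element called the CArG box together with myocardin or the related factors MRTF-A and MRTF-B, and several of them are induced by TGF-beta in fibroblasts. Embryonic stem cells are not contractile cells, although they use non-muscle forms of most of these proteins.

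RNA was sequenced from 12 libraries of mouse embryonic stem cells, 3 in each of 4 groups. B6 is the inbred strain C57BL/6J and D2 the inbred strain DBA/2J. B6-13D2 is labelled B6.D2-(rs30079041-rs51756099)/Bakr and carries a D2 segment of chromosome 13 on the B6 background, and D2-13B6 is the reciprocal line, labelled D2.B6-(rs29224292-rs13469455)/Bakr, with a B6 segment on the D2 background. The comparisons ask which expression differences go with the strain, with the segment, or with the congenic lines as such.

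All 4 groups were cultured alike, in medium with serum, the cytokine LIF, the MEK inhibitor PD0325901 and the GSK3 inhibitor CHIR99021, and the labels mention no feeder cells. The protocol describes 3 cultures of a single line per strain, so strain and line cannot be told apart, while the titles call the libraries technical replicates and name a different line for B6 replicate 3 than for B6 replicates 1 and 2. The D2 titles also name a different line from the D2 cell line field. For D2-13B6, the series' design text gives another marker (rs51756099) for the end of the segment than the sample labels do. P-values measure only the spread between these libraries, which may be technical. Library totals ran from 22184196 to 36411799 expected counts.

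The mRNA levels of the contractile genes followed a single order. D2 was highest, B6 next, then D2-13B6, and B6-13D2 lowest, for the group means of all 10 genes, except that Actg2 left the order when library totals alone were used for scaling. Their summed level was 6836 ± 223 CPM in D2, 4938 ± 140.4 in B6, 3695 ± 14.3 in D2-13B6 and 1708 ± 10.2 in B6-13D2 (SD, n = 3), where CPM stands for counts scaled to a common library total with TMM factors. In 9 of the 10 genes no library of one group overlapped the group next to it in that order, and Actg2 was the exception, because its B6 and D2-13B6 libraries overlapped. Of the 17148 genes tested in the whole table, 14.8% had this order of group means and 6.6% had it with no overlap. The replicates lay close together, with coefficients of variation of 0.269% to 7.09% within a group.

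**Figure D1:**
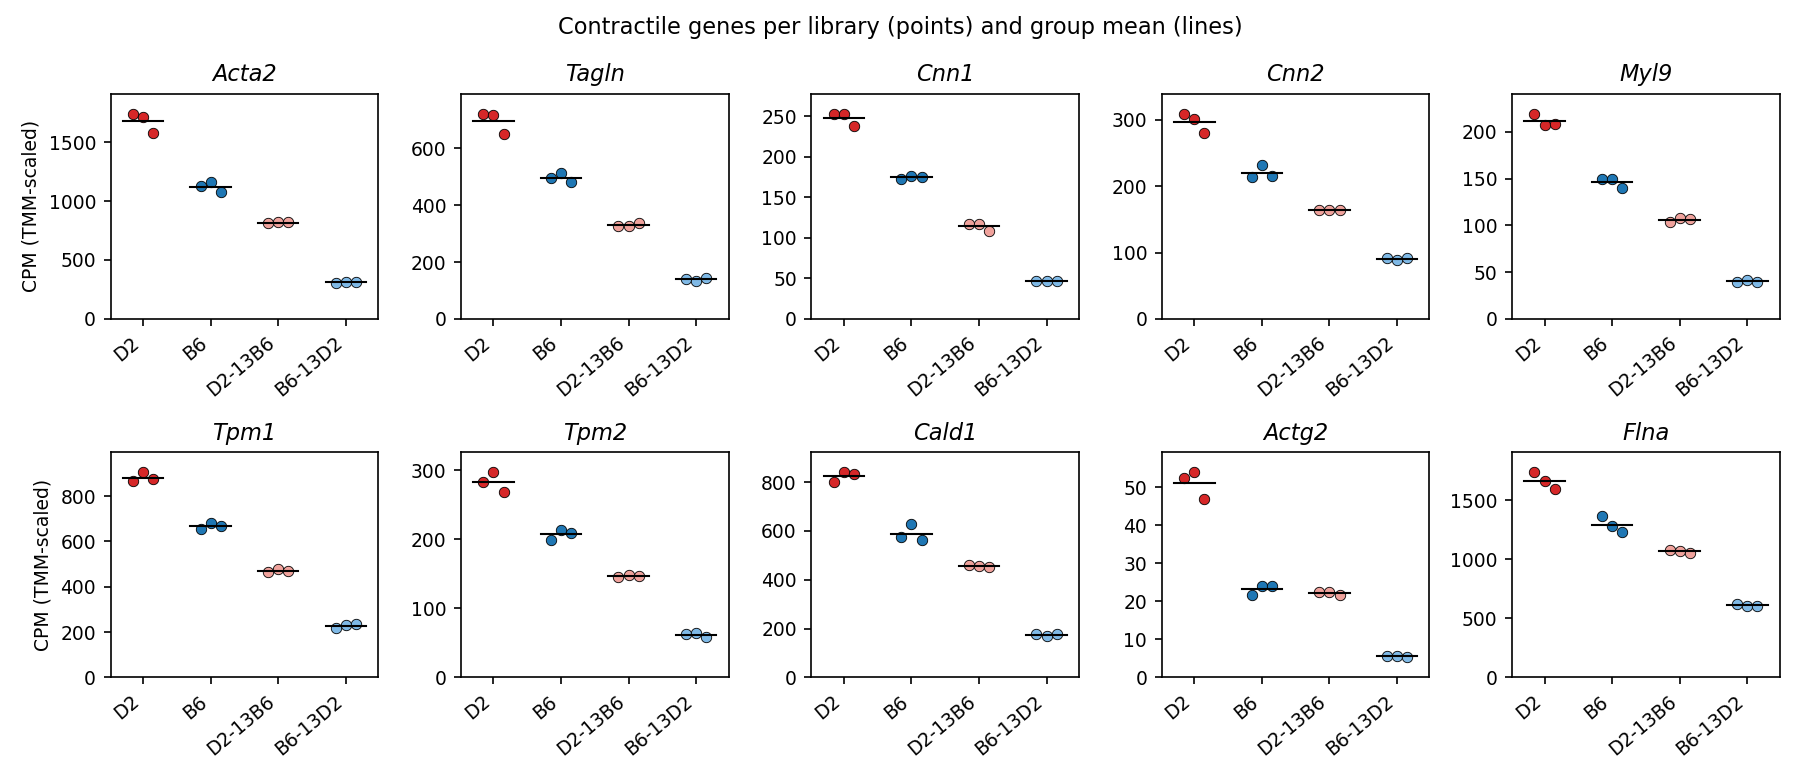
Each panel shows one contractile gene, with TMM-scaled CPM on a vertical axis that starts at 0, a point for each of the 3 libraries of a group and a line at the group mean. The means fall from D2 through B6 and D2-13B6 to B6-13D2 in every panel (for Actg2 not with library totals alone), and only for Actg2 do the B6 and D2-13B6 points overlap.

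Promoter windows, 250 bases before to 50 bases after the start site in RefSeq (GRCm38.p6), were found for 8 of the 10 genes, with 9 windows in all because Cald1 has a pair. Tagln and Actg2 were not matched. The windows of 4 genes are shown because they hold an exact CArG box (Cnn2 and Myl9), or because they belong to the usual myofibroblast marker (Acta2) and to the gene with the narrowest span over the groups (Flna). Capitals mark a CArG box, exact or with 1 mismatch, and each run reads 5′ to 3′ on the strand of the gene.
Acta2 (chr19:34255324-34255623, minus strand): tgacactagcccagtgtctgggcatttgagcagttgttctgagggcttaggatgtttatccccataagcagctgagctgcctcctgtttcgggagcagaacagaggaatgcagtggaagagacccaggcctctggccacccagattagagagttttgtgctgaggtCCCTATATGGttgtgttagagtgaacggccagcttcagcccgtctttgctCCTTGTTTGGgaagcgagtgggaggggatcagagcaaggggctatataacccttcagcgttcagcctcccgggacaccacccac
Cnn2 (chr10:79988350-79988649, plus strand): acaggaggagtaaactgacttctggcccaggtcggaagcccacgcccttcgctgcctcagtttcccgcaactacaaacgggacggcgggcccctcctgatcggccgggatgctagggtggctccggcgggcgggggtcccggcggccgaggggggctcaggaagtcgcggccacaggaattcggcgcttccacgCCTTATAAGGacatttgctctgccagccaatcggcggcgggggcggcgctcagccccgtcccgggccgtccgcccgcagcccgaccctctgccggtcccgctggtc
Myl9 (chr2:156775214-156775513, plus strand): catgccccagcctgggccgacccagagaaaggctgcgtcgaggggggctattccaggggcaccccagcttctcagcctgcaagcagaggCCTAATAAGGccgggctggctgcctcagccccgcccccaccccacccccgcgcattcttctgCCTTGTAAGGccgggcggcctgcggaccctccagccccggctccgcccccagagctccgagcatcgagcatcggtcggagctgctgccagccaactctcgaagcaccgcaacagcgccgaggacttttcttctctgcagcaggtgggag
Flna (chrX:74246485-74246784, minus strand): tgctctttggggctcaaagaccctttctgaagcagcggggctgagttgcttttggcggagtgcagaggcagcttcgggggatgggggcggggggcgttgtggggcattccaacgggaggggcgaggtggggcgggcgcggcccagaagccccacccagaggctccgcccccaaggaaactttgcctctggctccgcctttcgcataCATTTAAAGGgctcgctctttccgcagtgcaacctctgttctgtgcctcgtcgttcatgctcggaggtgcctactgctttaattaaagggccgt

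An exact CArG box was found in the windows of Cnn2 (CCTTATAAGG, first base 56 bases upstream of the start site) and Myl9 (CCTAATAAGG, 161 bases upstream). Acta2 held a pair with 1 mismatch, CCCTATATGG at 84 and CCTTGTTTGG at 34 bases upstream, and Flna held CATTTAAAGG at 44 bases upstream. With at most 1 mismatch, 6 of the 8 genes had a match on either strand (Acta2, Cnn2, Myl9, Tpm1, Cald1 and Flna), and Cnn1 and Tpm2 had none in this window. Of 32851 promoter windows of the same length, 1.63% held an exact box and 21.11% one with at most 1 mismatch. GGAATG, the letters that TEAD factors, the DNA-binding partners of YAP, recognise, stood on either strand in the windows of Acta2, Tpm1, Cald1 and Flna, against 14.66% of all windows. These are matches of letters only, and binding was not measured.

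Among the actins, Acta2 (ENSMUSG00000035783, chr19:34241090-34255590, minus strand, GRCm38) encodes smooth muscle alpha actin, the usual marker of myofibroblasts. Its level was 1738, 1709 and 1579 CPM in the D2 libraries, 1124, 1158 and 1074 in B6, 811, 818 and 818 in D2-13B6, and 308, 310.5 and 311 in B6-13D2. The groups did not overlap, and the D2 mean was 5.40 times the B6-13D2 mean. In D2 the log2 fold change over B6 was 0.58 (SE 0.037, adjusted p = 4.245e-10). It was -1.85 (SE 0.039) for B6-13D2 relative to B6, and -1.04 (SE 0.037) for D2-13B6 relative to D2.

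Actg2 (ENSMUSG00000059430, chr6:83512905-83536265, minus strand) encodes smooth muscle gamma actin, the actin of gut and other visceral muscle. It was the scarcest of the 10 genes per length, at 32.8 CPM per kb of exon in D2 and 3.55 in B6-13D2, where Acta2 stood at 763 and 141. The D2 libraries held 52.5, 53.8 and 47.0 CPM, the B6 libraries 21.5, 24.0 and 24.0, the D2-13B6 libraries 22.5, 22.4 and 21.6, and the B6-13D2 libraries 5.57, 5.74 and 5.28. Both B6 and D2-13B6 thus lay in one range, while D2 was above and B6-13D2 below it. Actg2 had the widest span of the 10 genes, 9.24-fold from D2 to B6-13D2, and a log2 fold change of 1.14 (SE 0.059, adjusted p = 2.99e-11) in D2 against B6. In D2-13B6 against B6 its value was -0.06 (SE 0.062, adjusted p = 0.4121), the single contractile gene not called there.

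Tagln, Cnn1, Cnn2 and Cald1 encode proteins that bind the actin filament. Transgelin (Tagln, chr9:45929619-45936058, minus strand) is an early marker of smooth muscle. Its level was 721, 719 and 652 CPM in D2, 497, 515 and 480.4 in B6, 326, 326 and 336 in D2-13B6, and 140.2, 135 and 143 in B6-13D2. The libraries of the 4 groups did not overlap, and the fold from B6-13D2 to D2 was 5.00. The gene overlaps Pcsk7 and the antisense gene Gm48529 on the plus strand, and 53.3% of its 75-base exon words (1057 of 1983) also occur in a transcript of another gene, nearly all of them in Gm48529. Whether counting used the strand is not given in the sources used here, so the Tagln count is uncertain to that extent. The other 9 genes shared none of these words with another gene's transcripts.

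Calponin 1 (Cnn1, chr9:22099216-22109630, plus strand) is a smooth muscle protein that inhibits the actomyosin motor. It had 253, 253 and 239 CPM in D2, 173, 176 and 176 in B6, 118, 117 and 109 in D2-13B6, and 47.1, 46.5 and 46.5 in B6-13D2. No groups overlapped. Its log2 fold change was 0.51 between the parental strains, -1.90 for B6-13D2 relative to B6, and -1.12 for D2-13B6 relative to D2.

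Calponin 2 (Cnn2, chr10:79988584-79996062, plus strand) is the more widely expressed calponin. Its levels were 309, 302 and 280.4 CPM in D2, 213, 232 and 215 in B6, 164, 165 and 164 in D2-13B6, and 91.4, 88.4 and 91.4 in B6-13D2. The order was the same as for Cnn1 and the groups were again separate, while the span was narrower, 3.29-fold against 5.31-fold. Caldesmon (Cald1, chr6:34598500-34775473, plus strand), another inhibitor of the motor, ranged from 825 ± 20.04 CPM in D2 and 588 ± 34.3 in B6 to 456 ± 3.75 in D2-13B6 and 174 ± 3.98 in B6-13D2 (SD, n = 3). Cald1 overlaps 3 genes on the opposite strand, but shares none of its exon words with their transcripts.

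The tropomyosins Tpm1 (chr9:67022590-67049406, minus strand) and Tpm2 (chr4:43514711-43523765, minus strand) encode coiled coils that run along the actin filament, and both genes give muscle and non-muscle isoforms, which a count per gene does not tell apart. Tpm1 had 867, 904 and 875 CPM in D2, 654, 681 and 669 in B6, 467, 478 and 469 in D2-13B6, and 219, 231 and 234 in B6-13D2. Tpm2 had means of 283 ± 14.0, 207 ± 7.56, 147 ± 1.66 and 61.8 ± 3.07 CPM in the same order of groups (SD, n = 3). The groups were separate for both genes, with spans of 3.87-fold for Tpm1 and 4.58-fold for Tpm2.

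Myl9 (chr2:156775420-156781658, plus strand) encodes the regulatory light chain of smooth muscle and non-muscle myosin, the part that is phosphorylated to start contraction. The D2 libraries held 219, 208 and 208 CPM, B6 150, 149 and 139.6, D2-13B6 104, 108 and 107, and B6-13D2 39.6, 41.6 and 39.6. The groups were separate and the span was 5.26-fold, close to the 5.40-fold of Acta2.

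Filamin A (Flna, chrX:74223461-74249820, minus strand) is an actin crosslinker that most cell types express. It had 1735, 1666 and 1596 CPM in D2, 1363, 1285 and 1234 in B6, 1080.2, 1070.0 and 1057 in D2-13B6, and 623, 602 and 607 in B6-13D2. The order and the separation of the groups held here too, but Flna had the narrowest span of the 10 genes, 2.73-fold. Flna lies on the X chromosome, and Xist, the RNA of the inactive X, ran in a different order of groups, with 169 ± 2.78 CPM in D2, 141 ± 6.79 in D2-13B6, 109.8 ± 6.45 in B6 and 47.6 ± 3.83 in B6-13D2 (SD, n = 3). The Y-linked gene Ddx3y was detected in every group, at means from 64.2 to 106 CPM. The part of Xist in the Flna values was not tested.

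All 10 contractile genes were called higher in D2 than in B6 by edgeR's quasi-likelihood test, with a Benjamini-Hochberg adjusted p under 0.05 over all genes tested. The background for that count is wide, since 29.8% of all genes were called higher in this comparison. Their log2 fold changes ran from 0.36 for Flna (SE 0.038, adjusted p = 2.42e-07) to 1.14 for Actg2, with a median of 0.49 against 0.01 over all genes. Only Actg2 was called with a log2 fold change of 1 or more, as were 5.59% of all genes. Ranked among all genes tested, the 10 stood higher than 74.5% to 95.2% of them.

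In B6-13D2 against B6, the background strain of that line, all 10 genes were called lower, as were 32.9% of all genes. The log2 fold changes ran from -1.08 for Flna to -2.06 for Actg2, with a median of -1.79 against -0.04 over all genes. A log2 fold change of -1 or less was reached by all 10 and by 11% of all genes. Only 1.35% to 10.7% of the genes tested had a lower value than these.

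In D2-13B6 against D2, again all 10 were called lower, as were 29.7% of all genes. Values ran from -0.64 for Flna to -1.21 for Actg2, with a median of -0.97 against 0 over all genes. Acta2, Tagln, Cnn1 and Actg2 passed -1, a size that 4.79% of all genes reached in a called decrease. Levels were thus below those of the background strain in both congenic lines.

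Set against the parental strain that carries the same chromosome 13 segment, the congenic lines were lower as well. In B6-13D2 against D2 all 10 genes were called lower, by -1.45 (Flna) to -3.21 (Actg2) with a median of -2.28, and so were 38% of all genes. In D2-13B6 against B6, 9 of 10 were called lower with a median of -0.46, as were 34.6% of all genes, whose median was -0.06. The values of the 9 ran from -0.28 for Flna to -0.61 for Cnn1, so none was called at -1 or less, as 4.7% of all genes were. Between the congenic lines, all 10 were higher in D2-13B6 than in B6-13D2, as were 38.4% of all genes, by 0.81 (Flna) to 2.00 (Actg2) with a median of 1.27. A value of 1 or more was reached by 8 of the 10 and by 15.1% of all genes. These comparisons share libraries with each other and are not separate evidence.

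**Figure D2:**
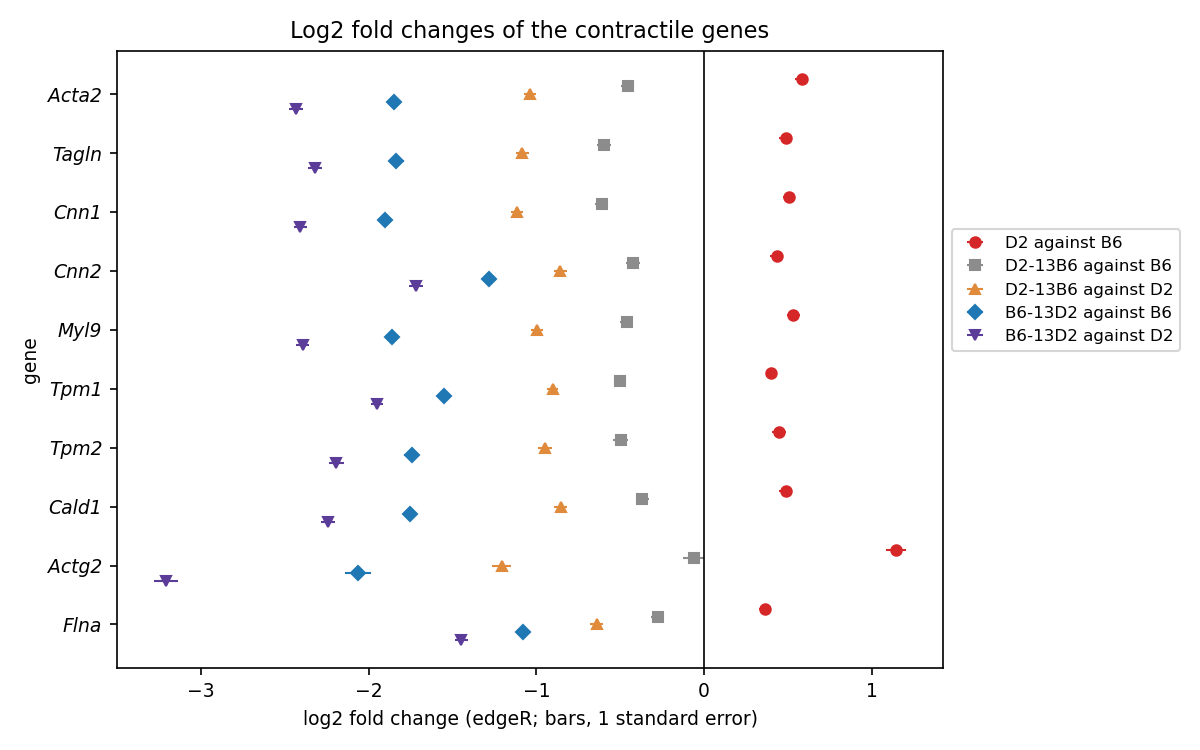
Log2 fold changes from edgeR (horizontal axis) are drawn for each contractile gene in 5 comparisons, with bars of 1 standard error. D2 against B6 lies to the right of 0 for all 10 genes and the other 4 comparisons to the left, with Actg2 in D2-13B6 against B6 at -0.06 next to the line.

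The effect of exchanging the segment was tested against the strain background in one contrast, the sum of both congenic groups minus the sum of both parental groups on the log2 scale. All 10 genes were called below 0, as were 33.4% of all genes, with values from -1.72 (Flna, SE 0.054) to -3.27 (Actg2, SE 0.097). By its construction the contrast cannot separate an interaction of segment and background from anything that the 6 congenic libraries share. Names of the congenic columns in the deposited table begin with a digit that the parental ones lack, and the labels do not say what it stands for.

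Tagln, Cnn1 and Myl9 kept within a narrow range of proportions to Acta2. As a percentage of Acta2 in the same library, Myl9 was 12.7% in D2, 13.1% in B6, 13.0% in D2-13B6 and 13.0% in B6-13D2. Cnn1 was 14.8%, 15.6%, 14.0% and 15.1%, and Tagln 41.6%, 44.5%, 40.3% and 45.0%, in the same order of groups. These are ratios of CPM, not corrected for gene length, so they compare groups for one pair of genes and not the abundance of the genes.

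Flna and Cnn2, the more widely expressed members, moved away from this proportion in B6-13D2. Flna was 99.5% ± 1.83 of Acta2 in D2, 116% ± 5.23 in B6, 131% ± 1.97 in D2-13B6 and 197% ± 4.31 in B6-13D2 (SD, n = 3), with no overlap between groups. Cnn2 was 17.7% in D2, 19.7% in B6, 20.1% in D2-13B6 and 29.2% in B6-13D2. Tpm1 was 73.6% in B6-13D2, against means of 52.7% to 59.8% in the other groups. Tpm2 (19.9%), Cald1 (56.3%) and Tagln (45.0%) also had their highest means in B6-13D2, by smaller margins. Actg2 instead split by background. It was 2.64% to 3.15% of Acta2 in the 6 libraries on the D2 background and 1.70% to 2.24% in the 6 on the B6 background.

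**Figure D3:**
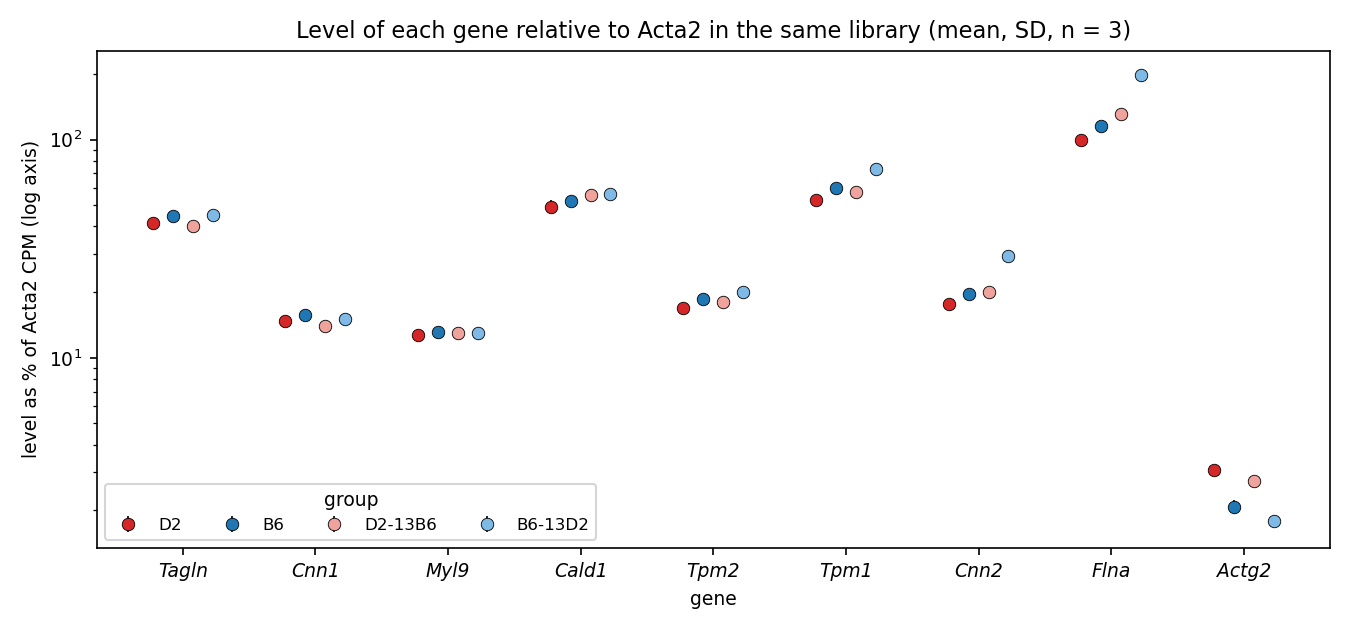
The CPM of each gene as a percentage of Acta2 in the same library is shown on a log axis, as the mean of 3 libraries with the SD, which is mostly smaller than the symbol. Tagln, Cnn1 and Myl9 vary least across the 4 groups, and Actg2 is higher in D2 and D2-13B6 than in B6 and B6-13D2. Cnn2 and Flna are highest in B6-13D2, and so, by smaller margins, are the means of Tpm1, Tpm2, Cald1 and Tagln.

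For each contractile gene the genes with the most similar pattern were found among the 12654 genes whose mean log2 CPM was 1 or more, by the root mean square difference of log2 CPM, centred per gene, over the 12 libraries. The nearest gene to Acta2 was Myl9, at 0.0381, followed by Fads3 (0.0514) and Anxa1 (0.0524). Cnn1 lay nearest to Plau (0.0313), which encodes the urokinase plasminogen activator, then to Tgfb2 (0.0526) and Tagln (0.0548). Cnn2 lay nearest to Ccn1 (0.0389), a secreted matrix protein gene, and Cavin1 (0.0414), a coat protein gene of caveolae. Tagln lay nearest to Capn2 (0.0467), Tpm1 to Wls (0.0449), Tpm2 to Axl (0.0385), Cald1 to Ehd2 (0.0568) and Flna to Cnppd1 (0.0358). Actg2 had no gene so near, with Piezo2, a mechanically gated ion channel gene, at 0.139 and Adra2a at 0.150. The median distance to all genes was from 0.576 for Flna to 1.14 for Actg2, and all these distances rest on the same 4 group levels.

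Other genes of the smooth muscle programme were examined as lists, whose counts are to be read against the shares of all genes called: 29.8% higher in D2 than in B6, 32.9% lower in B6-13D2 than in B6, and 29.7% lower in D2-13B6 than in D2. Of 12 further smooth muscle genes, 11 rose from B6 to D2 and 1 was not called, 10 fell and 1 rose from B6 to B6-13D2, and 11 fell from D2 to D2-13B6, with medians of 0.70, -1.22 and -0.83. Myh11, the smooth muscle myosin heavy chain, was scarce at 10.6 ± 0.171 CPM in D2, 5.14 ± 0.482 in B6, 4.92 ± 0.790 in D2-13B6 and 1.33 ± 0.144 in B6-13D2 (SD, n = 3). Kcnmb1, a subunit of a smooth muscle potassium channel, had the largest D2 against B6 value of the list, 1.19, at a mean of 1.37 CPM in D2. Ppp1r14a was the 1 gene that rose from B6 to B6-13D2, with means of 3.85 and 6.43 CPM. Des, the 1 not called in D2 against B6, had means of 13.7 CPM in D2 and 13.8 in B6-13D2.

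Of 18 non-muscle relatives and partners, 14 rose and 3 fell from B6 to D2, where 30.3% of all genes fell. In each congenic line 16 fell relative to its background strain. The medians in these 3 comparisons were smaller, at 0.27, -0.51 and -0.35. Zyx, which encodes the focal adhesion protein zyxin, had 184 ± 12.3 CPM in D2 and 36.1 ± 2.22 in B6-13D2 (SD, n = 3). Tagln3, a neuronal relative of Tagln, had the largest rise of the list in D2 against B6 (1.09) and was the 1 gene of it that rose from B6 to B6-13D2 (0.65), at means of 1.09 to 2.94 CPM over the 4 groups. Tpm3 and Myl12b, relatives of Tpm1 and Myl9 in non-muscle cells, went the other way between the parental strains, with log2 fold changes of -0.46 and -0.74 in D2 against B6. Of 9 striated muscle genes 7 could be tested, and 1 rose (Acta1, skeletal actin, 0.30) and 1 fell (Tnni3, cardiac troponin I, -0.64) in D2 against B6. From B6 to B6-13D2, 2 of them fell, Acta1 (-1.79) among these, and 1 rose (Tnni3, 1.31). From D2 to D2-13B6, 1 rose and 1 fell (Acta1, -1.42). The 2 of 7 striated muscle genes that fell from B6 to B6-13D2 are near the share of all genes, 32.9%.

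Among 23 regulators of these genes, 12 rose and 6 fell from B6 to D2, 20 fell and 2 rose from B6 to B6-13D2, and 13 fell and 1 rose from D2 to D2-13B6. Of all genes, 29.8% rose and 30.3% fell in the first of these comparisons, 32.9% fell and 25.4% rose in the second, and 29.7% fell and 27.6% rose in the third, so that the 6 regulators lower in D2 are near the background share. Their medians of 0.24, -0.38 and -0.25 were nearer to 0 than those of the contractile genes. Srf was 104 ± 5.88 CPM in D2, 86.2 ± 5.01 in B6, 73.2 ± 1.89 in D2-13B6 and 68.5 ± 0.665 in B6-13D2 (SD, n = 3), a log2 fold change of 0.27 in D2 against B6. Mrtfa (MRTF-A) changed by 0.37 from B6 to D2 and by -0.66 from B6 to B6-13D2. Mrtfb (MRTF-B) had 0.12 in the first of these (adjusted p = 0.07193, not called) and changed by -0.35 in the second. Myocd, the gene of myocardin itself, had 11, 12 and 17 reads per library in D2, 13, 8 and 5 in B6, 11, 14 and 14 in D2-13B6 and 2, 1 and 2 in B6-13D2.

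Of the TGF-beta ligands, Tgfb3 had 162 ± 3.98 CPM in D2, 101 ± 6.67 in B6, 60.2 ± 1.24 in D2-13B6 and 26.6 ± 1.495 in B6-13D2 (SD, n = 3), the order of the contractile genes. Tgfb1 rose by 0.63 in D2 against B6 and fell by 0.92 in B6-13D2 against B6, but stood level in D2-13B6 and B6, at 20.5 ± 0.159 and 20.1 ± 0.267 CPM. Klf4, a repressor of smooth muscle genes and also a pluripotency factor, was lower in D2 than in B6 (-0.61) and lower in B6-13D2 than in B6 (-0.38). Of the TEAD genes, Tead2 (-0.60) and Tead4 (-0.59) were lower in D2 than in B6, and Tead1 (0.23) and Tead3 (0.29) were higher. Of 10 further targets of TGF-beta and YAP, 9 rose in D2 against B6 and all 10 fell in both congenic lines against their background strain, with medians of 0.52, -1.67 and -0.99. Ankrd1 among them had 21.2 ± 1.22 CPM in D2 and 3.00 ± 0.247 in B6-13D2.

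Markers of fibroblasts moved with the contractile genes in these cultures. The sum of 16 fibroblast markers was 24676 to 28418 CPM in D2, 17750 to 18855 in B6, 14114 to 14794 in D2-13B6 and 7606 to 7743 in B6-13D2, and none of the 16 was at 0. Of these markers 16 were called higher in D2 than in B6, 16 lower in B6-13D2 than in B6, and 15 lower in D2-13B6 than in D2. The shares of all genes called in those directions were 29.8%, 32.9% and 29.7%. The fibrillar collagen genes Col1a1, Col1a2 and Col3a1 together were 5.00 times the B6-13D2 level in D2, 3.08 times in B6 and 2.51 times in D2-13B6. Acta2 was 11.04% of that collagen sum in D2, 11.9% in B6, 10.7% in D2-13B6 and 10.2% in B6-13D2.

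In D2-13B6 against B6, 11 of the 16 fibroblast markers were called lower and 4 higher, beside 9 of the 10 contractile genes lower and 0 higher. The 4 were Postn (0.45), Col3a1 (0.16) and the scarce Lum and Dcn. Dcn had the largest value, 1.09, at means of 2.94 CPM in D2-13B6 and 1.37 in B6, where Lum had 3.22 and 2.24. Of all genes, 34.6% were called lower and 24.5% higher in this comparison, and the difference between the lists was not tested. The order of group means from D2 to B6-13D2 that all 10 contractile genes followed was met by 11 of 16 fibroblast markers, 10 of 10 TGF-beta and YAP targets, 9 of 12 further smooth muscle genes, 10 of 18 non-muscle relatives, 7 of 23 regulators and 3 of 9 striated muscle genes. It was met by 1 of 10 primitive endoderm markers and by 0 of 13 pluripotent cell, 0 of 7 mesoderm and 0 of 5 sex chromosome genes, and by 14.8% of all genes tested. In bulk libraries, fewer cells of a type and less RNA per cell cannot be told apart. The part of fibroblast-type cells in the contractile gene values was not tested.

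Pluripotent cell markers were present in every library, with the lowest sum in D2 and the highest in B6-13D2. Their sum over 13 genes was 4139 to 4223 CPM in D2, 5107 to 5169 in D2-13B6, 5972 to 6313 in B6 and 6923 to 7200 in B6-13D2. Pou5f1, which encodes the pluripotency factor OCT4, had 532 ± 11.6 CPM in D2 and 767 ± 26.9 in B6-13D2, and Nanog 519 ± 28.4 and 792 ± 10.4 (SD, n = 3). Of the 13 markers, 11 fell and 1 rose in D2 against B6, where 30.3% of all genes were called lower. In B6-13D2 against B6, 12 rose and 1 fell, where 25.4% of all genes were called higher. From B6 to D2, 6 of 9 tested primitive endoderm genes rose and 1 fell, and of 6 tested mesoderm genes 0 rose and 1 fell (Eomes, -0.99), against 29.8% of all genes that rose and 30.3% that fell.

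**Figure D4:**
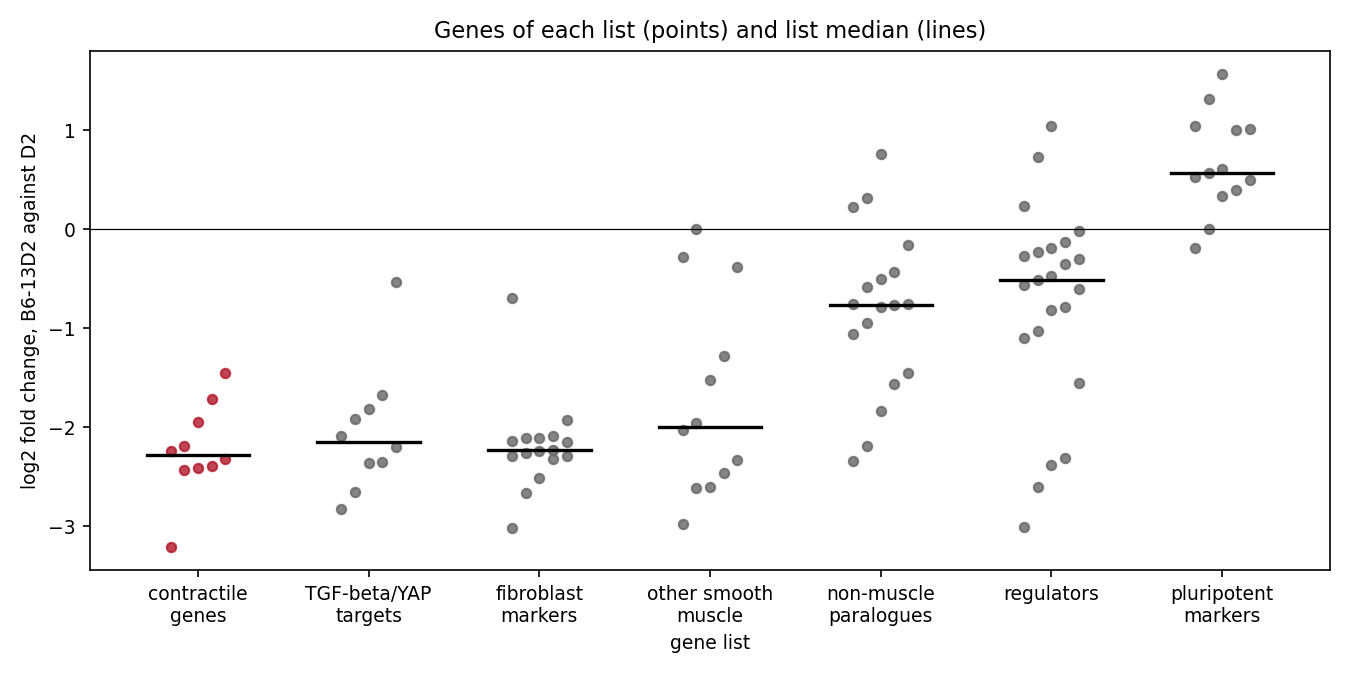
The log2 fold change in B6-13D2 against D2, the groups at both ends of the order, is plotted for each tested gene of 7 lists, with a line at each list's median. The contractile genes (median -2.28), TGF-beta and YAP targets and fibroblast markers lie below 0 throughout, the non-muscle relatives and the regulators are nearer to 0, and most pluripotent cell markers lie above it.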

How the data were processed

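RNA was measured in 12 libraries of mouse embryonic stem cells (mRNA kit, paired-end sequencing, per the labels' protocols). The authors deposited expected counts per Ensembl gene ID, which the file's title ascribes to EMASE, which shares out reads that match several genes or alleles by expectation maximization. The submitters' processing notes name Bowtie 1.0.0, edgeR 3.34.1 and mm10, without their roles. The annotation, filters and use of strand are not given in the sources used here.

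Symbols, positions and exon lengths came from GENCODE M21 (GRCm38), where 42462 of 43346 IDs were found. Every column mapped to a library. After rounding to whole numbers, all genes went into edgeR 4.0.16 (R 4.3.3) with filterByExpr (minimum count 10), TMM scaling, a quasi-likelihood fit of 4 group means to the 12 libraries, and Benjamini-Hochberg adjustment over 17148 genes at 0.05. A gene past that threshold is called, and "rose" or "fell" refers to a call. Standard errors are |log2 fold change| over √F. Likeness used log2(CPM + 0.5). CPM per kb divides by merged exon length. Simulated counts with known changes were used to check the code.

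The contractile genes and all other lists were chosen with earlier results of these data known. All 10 contractile genes are named. Of each other list, up to 2 genes per direction with the largest called change in D2 against B6 could be named, beside fixed regulators, collagens and pluripotency genes. Ppp1r14a, Des, Dcn and the other TEAD genes were added later, because they departed from genes named by that rule. For each contractile gene the 3 nearest genes were determined. Alternatives were DESeq2 1.42.0, RLE size factors, no filter on low counts, a filter at a mean of 1 CPM, calls limited to changes of 1 or more on the log2 scale, the replicate number as a term, fits to the compared groups alone, and fits without each library.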

Additional observations from a re-analysis of the deposited data

Results flagged for a closer look

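For each of the 10 contractile genes, the contrast of both congenic groups against both parental groups was below 0 in edgeR. It adds the differences of both congenic lines from their background strains (-1.85 and -1.04 for Acta2), and is not their average. The contrast cannot separate a segment effect that differs between the backgrounds from anything else that the 6 congenic libraries share. On the log2 scale the values were -2.89 for Acta2, -3.27 for Actg2, -2.92 for Tagln, -3.02 for Cnn1, -2.14 for Cnn2 and -2.61 for Cald1. They were -2.45 for Tpm1, -2.69 for Tpm2, -2.86 for Myl9 and -1.72 for Flna. Adjusted p was between 2.27e-17 and 9.047e-15 for the 10 genes, and of all genes tested 33.4% were called below 0 in this contrast. So were 16 of 16 fibroblast markers, 10 of 10 TGF-beta and YAP targets and 10 of 12 further smooth muscle genes. Their medians were -2.46, -2.60 and -2.23, beside -2.77 for the contractile genes. Of the further smooth muscle genes 1 was called above 0, as were 12 of 13 pluripotent cell markers. Each congenic group lay below both parental groups in group mean for all 10 on TMM scaling, and Actg2 was an exception with library totals alone.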

How the results depend on the processing

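The counts of contractile genes called (10, or 9 in D2-13B6 against B6) stayed as given under DESeq2, with RLE size factors, without the filter on low counts, with one at a mean of 1 CPM, in fits to the compared groups alone, and (9 to 10) without any one library. B6 replicate 3, whose title names another line, changed no count. Limiting calls to changes of 1 or more on the log2 scale left 1 gene in D2 against B6, 4 in D2-13B6 against D2, 8 in D2-13B6 against B6-13D2 and 0 in D2-13B6 against B6, where DESeq2 also gave 0. Of all genes, 5.59%, 4.79%, 15.1% and 4.7% passed that limit in the same direction in these comparisons. In that last comparison 9 genes had an unadjusted p under 0.05, with sizes from -0.61 to -0.28. Actg2 in D2-13B6 against B6 turned from -0.06 to 0.0040 (edgeR, adjusted p = 0.9579) in a fit to these 2 groups alone. The median of all genes moved from -0.06 to 0.0028 between the same fits, and the cause was not tested. With library totals alone, 9 genes followed the order of means and Actg2 did not. Without B6 replicate 1, all 10 followed it with no overlap.

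Same-numbered replicates did not deviate together (18 pairs of libraries, mean correlation -0.005456, from -0.1762 to 0.1157), so the numbers do not pair the samples. With the replicate block, the counts called were 10, and 9 in D2-13B6 against B6. RLE size factors moved the median of all genes by under 0.1. Actg2, the scarcest of the 10 genes, had the largest standard errors.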
